A study of Mus musculus with 2 samples.

Results

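Eph receptors form the largest family of receptor tyrosine kinases, and ephrins are their ligands, which stay attached to the surface of the cell that makes them. Ephrin-A proteins are held by a lipid anchor and bind mainly EphA receptors, whereas ephrin-B proteins cross the membrane and bind mainly EphB receptors, with EphA4 binding members of both classes. Contact can signal into either cell, and in the developing telencephalon the family is known for guiding migrating interneurons, sorting cells and mapping axons.

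The 10 family members described here were 5 EphA receptors (Epha3, Epha4, Epha5, Epha6 and Epha7), 2 EphB receptors (Ephb1 and Ephb2), 1 ephrin-A (Efna5) and 2 ephrin-Bs (Efnb2 and Efnb3). They were found by symbol among 32285 genes, each as 1 row, and were read in cells that held 1500 to 60000 UMIs, with less than 10% from mitochondrial genes. A UMI, or unique molecular identifier, stands for 1 captured mRNA molecule. The samples were single cells of the dorsal telencephalon from WT mouse embryos at embryonic day 16.5 (E16.5), in 2 libraries named WT replicate 1 and WT replicate 6 that formed 1 group. They were the controls of a series on the deletion of Dot1l, a histone methyltransferase gene, by Emx1-Cre, which is active in dorsal telencephalic progenitors. The labels name no treatment and do not say how many embryos gave a library, and the knockout was not analysed here.

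The matrices held 14136 and 13046 barcodes with 74930397 and 68964234 UMIs. After the filters on UMIs and mitochondrial content, 8139 and 8209 cells were left, and 7219 and 7352 after likely doublets were removed. The libraries shared 59 barcodes. Their gene totals differed by more than counting noise (chi-square of 22.9 per degree of freedom over 26575 degrees of freedom), which bears only on whether both files hold the same library. Of the 14571 cells, 8497 (58.3%) passed exactly 1 of 18 marker gates, none of which used an Eph or ephrin gene, and 104 that passed more than 1 gate were left out.

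Classes carry the suffix "-like" because they rest on markers alone. Radial glial cell-like (RGC-like) and intermediate progenitor cell-like (IPC-like) cells numbered 584 and 438. Newborn, upper-layer, layer 5 and layer 6 excitatory-like neurons numbered 1004, 2201, 405 and 242. Interneuron-like cells of medial and caudal ganglionic eminence origin (MGE-like and CGE-like) numbered 985 and 233, and dorsal LGE-like cells, named for the lateral ganglionic eminence, numbered 630. Endothelial-like and mural-like cells, the vessel wall classes, numbered 85 and 133.

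Among the 10 genes with the largest fold in each class, markers of another class stood only in dorsal LGE-like cells (Adarb2 and Foxp2, beside their own Pbx3 and Tshz1) and in the striatal class described next (Foxp2). For 17 classes at least 3 of its own markers were found in at least 10% of the cells of both libraries. The exception was the striatal gate with direct-pathway markers. There Ebf1 and Isl1 were found in at least 93% of the cells, but Drd1, Tac1 and Pdyn in 8% at most. These 189 cells are called Ebf1+/Isl1+ striatal-like, and the 226 cells of the gate with indirect-pathway markers Drd2+/Six3+ striatal-like. Both carried markers shared by striatal neurons such as Foxp1 and Bcl11b, although the striatum is not part of the dorsal telencephalon that the protocol names.

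Levels are UMIs summed over the cells of a library and class, scaled to counts per 1000000 UMIs of that sum (CPM). The 3' chemistry counts molecules whatever the length of the mRNA, but if intronic reads were counted, long genes gain, so each gene was compared only with itself. The RefSeq gene spans on GRCm38.p6 ran from 7.059 kb for Efnb3 (chr11:69554092-69561150) to 969.5 kb for Epha6 (chr16:59641433-60610911). Median depth differed between classes. MGE-like interneurons had 3746 and 3650.5 UMIs per cell in the libraries and upper-layer-like neurons 9185 and 8094, so shares of cells with a UMI were taken after cells were thinned to 2000 UMIs. Cells below 2000 UMIs were left out of these shares, 116 MGE-like, 32 CGE-like, 81 dorsal LGE-like and 94 erythroid-like cells among them and at most 23 in any other class.

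Erythroid-like cells, which make haemoglobin and should lack the whole family, showed what free RNA can give. Their level of Epha5 was 202 CPM in both libraries, although 69.6% and 74.7% of their UMIs came from globin genes. Epha4 stood at 47.3 and 57.4 CPM there, Ephb1 at 26.9 and 32.2 CPM, and Epha6 at 22.3 and 18.9 CPM. Counted over the UMIs that were not globin, the same cells had 666 and 797 CPM of Epha5, 290 and 188 CPM of Epha3, 88.6 and 127 CPM of Ephb1 and 45.9 and 38.8 CPM of Efnb3. Several classes did not rise above this higher reference. For Epha5, Ebf1+/Isl1+ striatal-like and dorsal LGE-like cells lay below it, and RGC-like, IPC-like and Drd2+/Six3+ striatal-like cells overlapped with it. For Epha4, at 156 and 227 CPM without globin, the deep-layer neurons lay below it and upper-layer-like neurons overlapped with it. For Epha3, Drd2+/Six3+ striatal-like cells lay below it, and CGE-like, dorsal LGE-like, RGC-like and Ebf1+/Isl1+ striatal-like cells overlapped with it. Ephb1 in RGC-like and upper-layer-like cells and Efnb3 in interneurons also overlapped with it. These are examples, and the list is not complete. The erythroid values given below include globin, in levels as in shares of cells. Endothelial-like cells lay below these erythroid levels for Epha3, Epha5, Epha6, Ephb1, Ephb2 and Efnb3, so the background was not the same in every class.

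**Figure D1:**
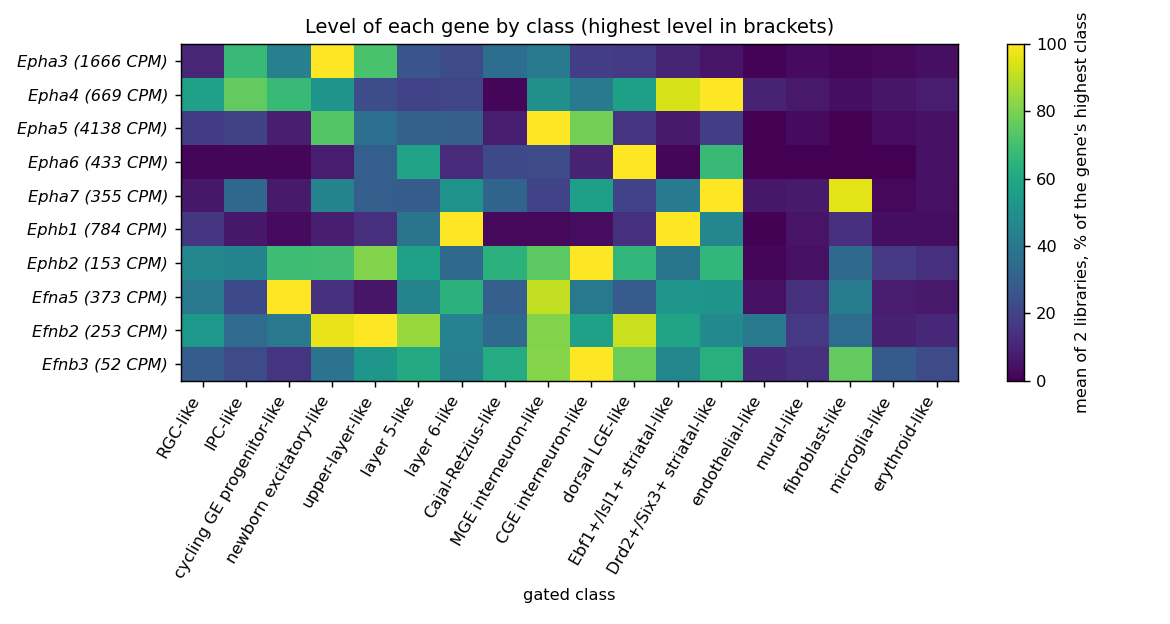
Mean level of the 10 genes (rows) in the 18 gated classes (columns), each gene as a percentage of its own highest class; brackets give that highest mean in CPM over 2 libraries. Epha3 is brightest in newborn excitatory-like neurons, Epha5 in MGE-like interneurons, Ephb1 in layer 6-like and Ebf1+/Isl1+ striatal-like neurons, and endothelial-like, mural-like and blood cells are dark for most genes.

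The promoters of 4 members are shown because these genes separated neuron subtypes in the comparisons below: Epha3, Epha7 and Efna5 differed between MGE-like and CGE-like interneurons, and Ephb1 gave the largest difference between interneuron-like and other neurons. Each run is 150 bases before the gene's start on its own strand, from RefSeq on GRCm38.p6, where all members but Efnb3 matched a promoter entry. Capitals mark the GC box, GGGCGG on either strand. The windows lie at chr9:102354694-102354843 (minus strand) for Ephb1, chr16:63864176-63864325 (minus) for Epha3, chr4:28812916-28813065 (plus) for Epha7 and chr17:62881318-62881467 (minus) for Efna5.
Ephb1: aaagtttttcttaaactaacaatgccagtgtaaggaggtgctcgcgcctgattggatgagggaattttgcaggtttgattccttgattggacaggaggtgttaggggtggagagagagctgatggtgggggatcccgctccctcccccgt
Epha3: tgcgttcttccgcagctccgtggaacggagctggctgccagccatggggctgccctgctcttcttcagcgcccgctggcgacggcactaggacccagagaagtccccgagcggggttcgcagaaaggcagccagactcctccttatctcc
Epha7: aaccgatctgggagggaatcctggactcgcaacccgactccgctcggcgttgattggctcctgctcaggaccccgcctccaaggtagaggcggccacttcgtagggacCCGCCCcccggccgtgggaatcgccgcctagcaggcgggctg
Efna5: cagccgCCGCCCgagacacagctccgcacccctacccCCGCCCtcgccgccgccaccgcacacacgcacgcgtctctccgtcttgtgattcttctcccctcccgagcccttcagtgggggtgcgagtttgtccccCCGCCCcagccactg
A GC box was found once in the Epha7 window, 3 times in the Efna5 window and not in the others, against 28.6% of 32851 promoter windows of the same length. GC content was 51.3% for Ephb1, 65.3% for Epha3, 68.7% for Epha7 and 71.3% for Efna5, with a median of 54.0% over all windows. Neither the E-box CANNTG, in 47.7% of all windows, nor the homeodomain core TAAT, in 37.8%, was found in any of the 4. Both strands were searched. These letters were matched as text and do not mark bound sites.

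Epha4, a receptor that binds both ephrin classes, was highest in the striatal-like neurons. Its level was 675 and 664 CPM in Drd2+/Six3+ striatal-like cells and 623 and 637 CPM in Ebf1+/Isl1+ striatal-like cells. IPC-like cells followed with 480 and 538 CPM, and RGC-like cells had 406 and 359 CPM. The excitatory-like neurons were lower. Newborn excitatory-like neurons had 346 and 349 CPM, upper-layer-like neurons 153 and 164 CPM and layer 5-like neurons 120 and 148 CPM. Layer 6-like neurons, at 134 and 144 CPM, overlapped with layer 5-like neurons. Cajal-Retzius-like cells, reelin-producing neurons of the cortical surface, held only 4 and 3 UMIs of Epha4, or 12 and 9.46 CPM, below the erythroid background. At 2000 UMIs per cell, Epha4 was found in 66.7% and 69.3% of Ebf1+/Isl1+ striatal-like cells, 14.3% and 18.8% of layer 5-like cells and 3.76% and 7.11% of erythroid-like cells.

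Epha3, an EphA receptor that binds ephrin-A5, followed the newborn excitatory neurons. It reached 1597 and 1734 CPM there, above upper-layer-like neurons at 1139 and 1240 CPM, which overlapped with IPC-like cells at 1070 and 1171 CPM. RGC-like cells had 188 and 168 CPM. Layer 5-like neurons had 329 and 547 CPM and layer 6-like neurons 350 and 412 CPM, so the deep-layer classes overlapped and both lay under all 3 classes above them. Among GABAergic cells, MGE-like interneurons had 614 and 763 CPM, dorsal LGE-like cells 246 and 326 CPM and Drd2+/Six3+ striatal-like cells 84.0 and 110 CPM. The striatal value overlapped with the erythroid background of 88.2 and 47.6 CPM. Epha3 was found in 89.3% and 88.1% of newborn excitatory-like cells at 2000 UMIs and in 8.85% and 11.7% of Drd2+/Six3+ striatal-like cells.

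Epha5, a receptor for ephrin-A ligands, was highest in interneurons. MGE-like interneurons had 3752 and 4525 CPM, CGE-like interneurons 3230 and 3320 CPM and newborn excitatory-like neurons 3046 and 3003 CPM, with no overlap between these neighbours. Upper-layer-like neurons followed with 1516 and 1521 CPM, and layer 5-like and layer 6-like neurons overlapped between 1164 and 1372 CPM. The GABAergic classes other than MGE-like and CGE-like interneurons stood far lower. Dorsal LGE-like cells had 591 and 659 CPM and Ebf1+/Isl1+ striatal-like cells 300 and 288 CPM. Erythroid-like cells had 202 CPM. Epha5 was found at 2000 UMIs in 97.4% and 97.0% of newborn excitatory-like cells, in 89.0% and 89.3% of MGE-like interneurons, and in 11.3% and 15.1% of erythroid-like cells.

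Epha7, an EphA receptor known from cortical and striatal patterning, was highest in Drd2+/Six3+ striatal-like cells at 396 and 314 CPM. Fibroblast-like cells overlapped with them at 402 and 279 CPM. There 44 of 52 and 47 of 55 cells had a UMI. CGE-like interneurons at 182 and 218 CPM and layer 6-like neurons at 172 and 192 CPM came next and overlapped. MGE-like interneurons were lower, at 72.1 and 71.0 CPM, and RGC-like cells had 16.9 and 28.8 CPM, overlapping with endothelial-like and mural-like cells.

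Epha6, a receptor of the same subclass, was carried by few cells in the classes where it was high. Dorsal LGE-like cells had the highest level, 468 and 398 CPM, but only 76 of 316 and 74 of 314 of these cells held any of the 678 and 512 UMIs. In Drd2+/Six3+ striatal-like cells, at 355 and 232 CPM, 22 of 113 cells in each library held 266 and 142 UMIs. Layer 5-like neurons had 210 and 288 CPM and upper-layer-like neurons 121 and 139 CPM. In CGE-like interneurons the libraries differed widely, 42 UMIs against 3 (WT replicate 1 first), and 3 cells held 33 of the 42. RGC-like, IPC-like and Ebf1+/Isl1+ striatal-like cells lay between 1.97 and 13 CPM, below the erythroid background. Endothelial-like and mural-like cells had 0 UMIs in both libraries, where 3 counts would be 4.37 to 6.30 CPM.

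Ephb1, a receptor for ephrin-B ligands known for its role in axon crossing at the optic chiasm, marked deep-layer and striatal neurons. Layer 6-like neurons had 727 and 841 CPM and Ebf1+/Isl1+ striatal-like cells 719 and 848 CPM, and these overlapped. Drd2+/Six3+ striatal-like cells had 409 and 314 CPM and layer 5-like neurons 295 and 308 CPM. RGC-like cells, at 121 and 128 CPM, lay above upper-layer-like neurons at 97.2 and 113 CPM. Interneurons were at the other end. MGE-like interneurons had 11.0 and 21.9 CPM and CGE-like interneurons 36.4 and 13.8 CPM, at about the erythroid level of 26.9 and 32.2 CPM. At 2000 UMIs, Ephb1 was found in 1.87% and 2.95% of MGE-like interneurons and 4.30% and 3.35% of erythroid-like cells, so the interneuron signal was read as background. In layer 6-like neurons it was found in 65.7% and 67.2% of cells.

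Ephb2, an EphB receptor with a role in axon guidance and synapse formation, had UMIs in all neuron classes. CGE-like interneurons had the highest level, 138 and 168 CPM, above upper-layer-like neurons at 122 and 127 CPM. MGE-like interneurons at 107 and 122 CPM, newborn excitatory-like neurons at 102 and 111 CPM came next, then dorsal LGE-like cells at 101 CPM in both libraries. Layer 6-like neurons at 53.0 and 52.3 CPM and Ebf1+/Isl1+ striatal-like cells at 50.5 and 69 CPM overlapped at the low end of the neurons. Neither class was above the erythroid level without globin, 76.4 and 69.2 CPM. Endothelial-like cells held 0 and 2 UMIs.

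Among the ligands, Efna5, which encodes the lipid-anchored ephrin-A5, was highest in some GABAergic classes but not high in all of them. Cycling cells with ganglionic eminence (GE) progenitor markers had 377 and 368 CPM and MGE-like interneurons 338 CPM in both libraries, with no overlap between them. Layer 6-like neurons had 204 and 275 CPM, Ebf1+/Isl1+ striatal-like cells 215 and 176 CPM and layer 5-like neurons 193 and 144 CPM. The striatal class overlapped with both deep-layer classes, which did not overlap with each other. CGE-like interneurons, at 182 and 119 CPM, and dorsal LGE-like cells, at 82.2 and 133 CPM, lay below layer 6-like neurons. RGC-like cells had 156 and 146 CPM. Upper-layer-like neurons were the lowest of the neurons at 24.3 and 19.6 CPM, within the erythroid range of 33.4 and 17.5 CPM. Upper-layer-like neurons thus lay below both deep-layer classes for Efna5 and above them for Epha3, a difference that was not tested. Efna5 was found in 30.4% and 32.2% of MGE-like interneurons at 2000 UMIs, against 3.82% and 2.76% of upper-layer-like and 2.69% and 2.93% of erythroid-like cells.

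Efnb2, which encodes the transmembrane ephrin-B2, had UMIs in every neuron class. Upper-layer-like neurons at 243 and 262 CPM overlapped with newborn excitatory-like neurons at 248 and 241 CPM. Dorsal LGE-like cells followed with 237 and 229 CPM, layer 5-like neurons with 200 and 226 CPM and MGE-like interneurons with 194 and 215 CPM. CGE-like interneurons had 142 and 147 CPM and layer 6-like neurons 97.0 and 128 CPM. RGC-like cells had 124 and 145 CPM and IPC-like cells 73.5 and 104 CPM. Endothelial-like cells, where ephrin-B2 is a known arterial marker, had 85.9 and 118 CPM and mural-like cells 46.9 and 37.6 CPM. Layer 6-like, RGC-like, IPC-like and endothelial-like levels overlapped with the erythroid level without globin, 82.5 and 125 CPM.

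Efnb3, which encodes the transmembrane ephrin-B3, had low counts, with 8 to 296 UMIs per library in the neuron classes. It was highest in CGE-like interneurons at 58.3 and 46.0 CPM, which overlapped with MGE-like interneurons at 39.0 and 46.2 CPM. Layer 5-like neurons had 31.8 and 32.0 CPM and upper-layer-like neurons 26.3 and 28.7 CPM. RGC-like cells at 12.5 and 17.8 CPM and IPC-like cells at 12.9 and 11.2 CPM overlapped with the erythroid level of 13.9 and 9.80 CPM.

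**Figure D2:**
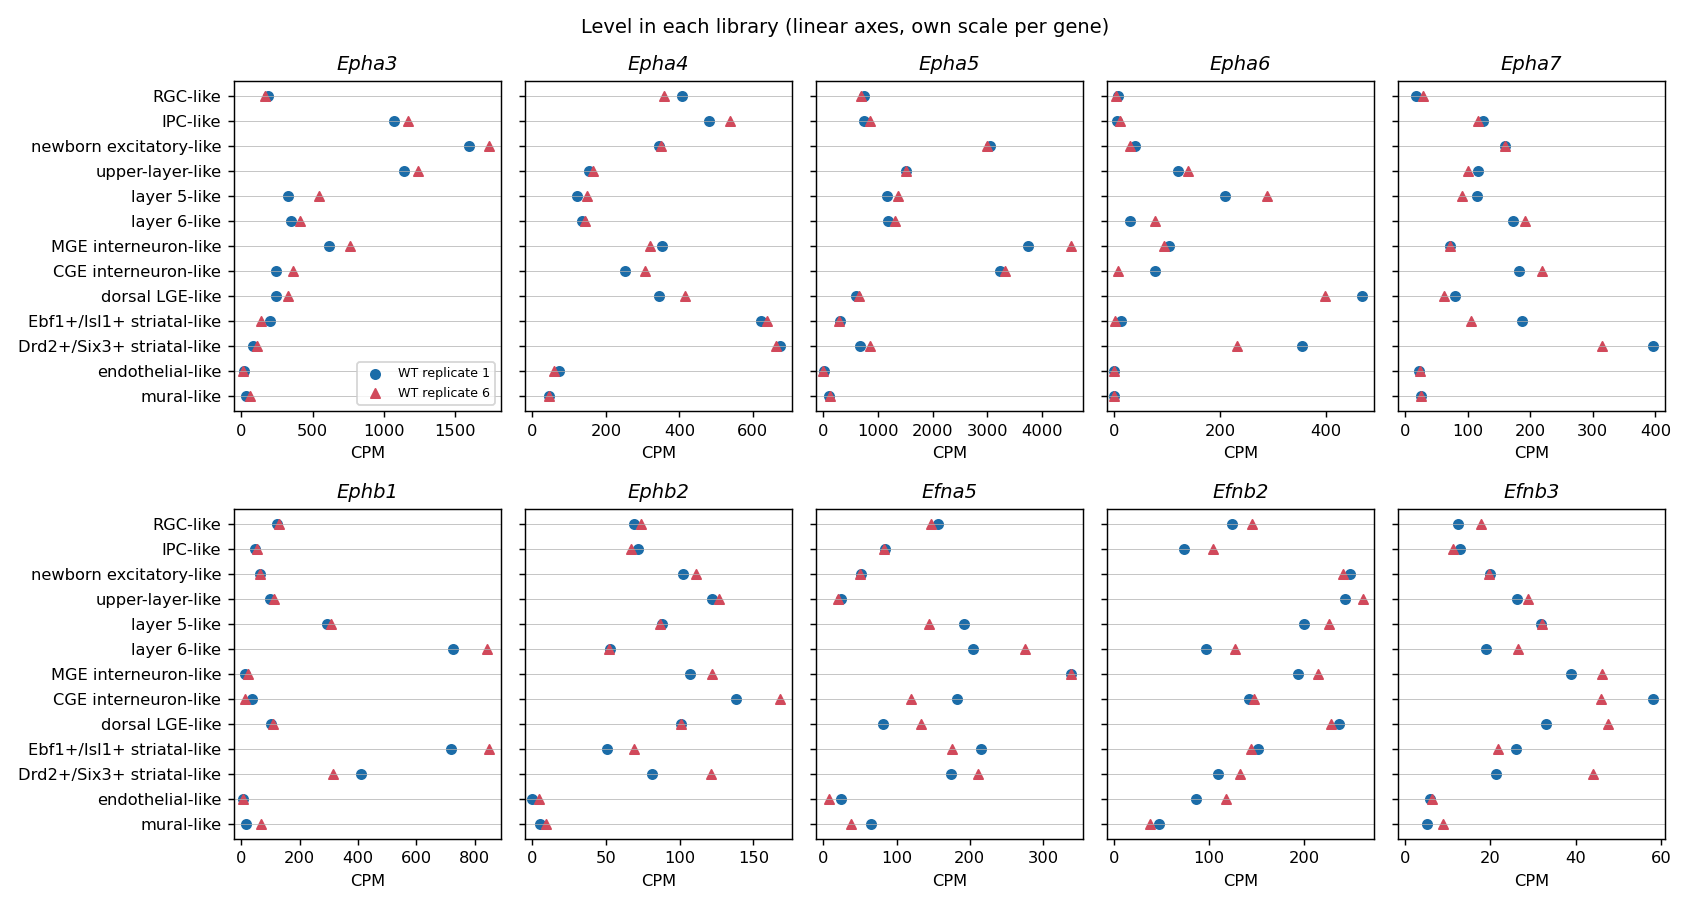
CPM of each gene in 13 neural and vascular classes, with WT replicate 1 as circles and WT replicate 6 as triangles on linear axes of their own. The libraries lie close together for most points, and Epha6 in CGE-like interneurons (76.5 and 6.89 CPM) and Epha3 in layer 5-like neurons (329 and 547 CPM) are among the wider pairs.

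Per cell, the classes also differed in how many of the 10 genes were found. At 2000 UMIs, newborn excitatory-like cells had a mean of 3.31 and 3.27 of the genes, MGE-like interneurons 2.89 and 2.97 and RGC-like cells 2.05 and 2.09. Endothelial-like cells had 0.481 and 0.355 and erythroid-like cells 0.414 and 0.448. Over the 36 sums of 18 classes and 2 libraries, Epha3 and Epha5 were the most alike pair of the 45, with r = 0.828 (Pearson, log2 of CPM plus 1), and Epha3 and Ephb1 the least, with 0.204. These sums share libraries, and blood and vessel classes at low levels raise r for any neuronal gene.

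Among 3805 genes with a mean of at least 50 CPM, the most alike in pattern to Epha3 was Elavl4, a neuronal RNA-binding protein, with r of 0.923. For Epha4 these were Gm4258 (0.858) and Ptbp2 (0.853), a splicing regulator of developing neurons, and for Epha5 Gm3764 (0.933) and, at rank 3, the adhesion molecule Nrcam (0.916). For Efnb2 and Epha7 the first gene was the same, the histone demethylase Kdm5b, with r of 0.943 and 0.825. Efna5 was most like Vcan (0.770), a matrix proteoglycan, Epha6 most like Tnr (0.886), also of the matrix, and Ephb2 most like Srgap3 (0.891), a regulator of Rac. For Ephb1 and Efnb3 the first genes were Gm30382 (0.757) and Gm43376 (0.821). Each r is over 36 sums and describes these libraries only.

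The first comparison asked how excitatory neurons differ from the interneurons that migrate among them. Here the 3852 excitatory-like cells, of which 2201 were upper-layer-like, were set against the 1218 MGE-like and CGE-like interneurons. Ephb1, Epha3, Epha6, Epha7 and Efnb2 were higher in excitatory-like neurons and Efna5, Epha5, Efnb3 and Epha4 were higher in interneurons. Between single subtypes, Ephb1, Epha5 and Efnb3 kept these directions, but others did not. Epha3 in layer 5-like (329 and 547 CPM) and layer 6-like neurons (350 and 412 CPM) lay below MGE-like interneurons (614 and 763 CPM). Newborn excitatory-like neurons had less Epha6 (38.7 and 29.4 CPM) than MGE-like interneurons (104 and 93.4 CPM). Their Epha4 levels overlapped. Efna5 in layer 6-like neurons (204 and 275 CPM) lay above CGE-like interneurons (182 and 119 CPM). Epha7 in CGE-like interneurons (182 and 218 CPM) lay above newborn (159 and 160 CPM), upper-layer-like and layer 5-like neurons. Efnb2 in layer 6-like neurons (97.0 and 128 CPM) lay below MGE-like (194 and 215 CPM) and CGE-like interneurons (142 and 147 CPM). Ephb1 differed most, by a log2 difference of 3.23 ± 0.12 (SE, 2 sums per class, edgeR quasi-likelihood test, adjusted p = 1.09e-08). With 155 and 171 CPM against 16.1 and 20.5 CPM this was 9.36-fold, with the interneuron side at background. Efna5 was 4.73-fold higher in interneurons (307 and 300 against 64.5 and 57.8 CPM, adjusted p = 1.78e-08), and Epha5 2.08-fold higher (adjusted p = 1.11e-05). Epha3 was 1.97-fold higher in excitatory-like neurons (adjusted p = 0.000114). Epha4 was 1.56-fold higher in interneurons, with 333 and 317 against 192 and 205 CPM (adjusted p = 0.000177).

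Smaller differences were seen for Efnb3, 1.63-fold higher in interneurons (adjusted p = 0.000598), and for Epha7, Epha6 and Efnb2, which were 1.36-fold, 1.39-fold and 1.29-fold higher in excitatory-like neurons (adjusted p = 0.00262, 0.00879 and 0.00739). None of these last 4 passed at an adjusted p of 0.05 when cells were thinned to equal depth, where p was 0.213 for Efnb3, 0.22 for Epha7, 0.184 for Epha6 and 0.129 for Efnb2. Ephb2 had 108 and 113 against 113 and 130 CPM, a difference of -0.06 with a 95% interval from -0.26 to 0.14. Thus 5 members were higher and 4 lower, where 21.4% of 14569 genes tested were called higher in excitatory-like neurons and 20.1% lower. The median log2 difference was 0.15 over the members and 0.02 over all genes tested.

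Of the other 12 family genes, 8 were tested, 4 were higher and 1 lower. The ephrin-A genes Efna4 (18.0 and 21.8 against 3.67 and 5.22 CPM) and Efna3 had the largest log2 differences, 2.24 and 2.10, and Ephb3 was at -2.47. Of 20 signalling partners, 3 were higher and 9 lower. Vav3 was higher by 1.86, and Chn1, whose product alpha-chimaerin acts below EphA4, by 1.07. Nck1, an adaptor, had 8.39 and 6.08 against 49.1 and 48.6 CPM, and Grip1, a scaffold that binds ephrin-Bs, 428 and 448 against 2678 and 3082 CPM.

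**Figure D3:**
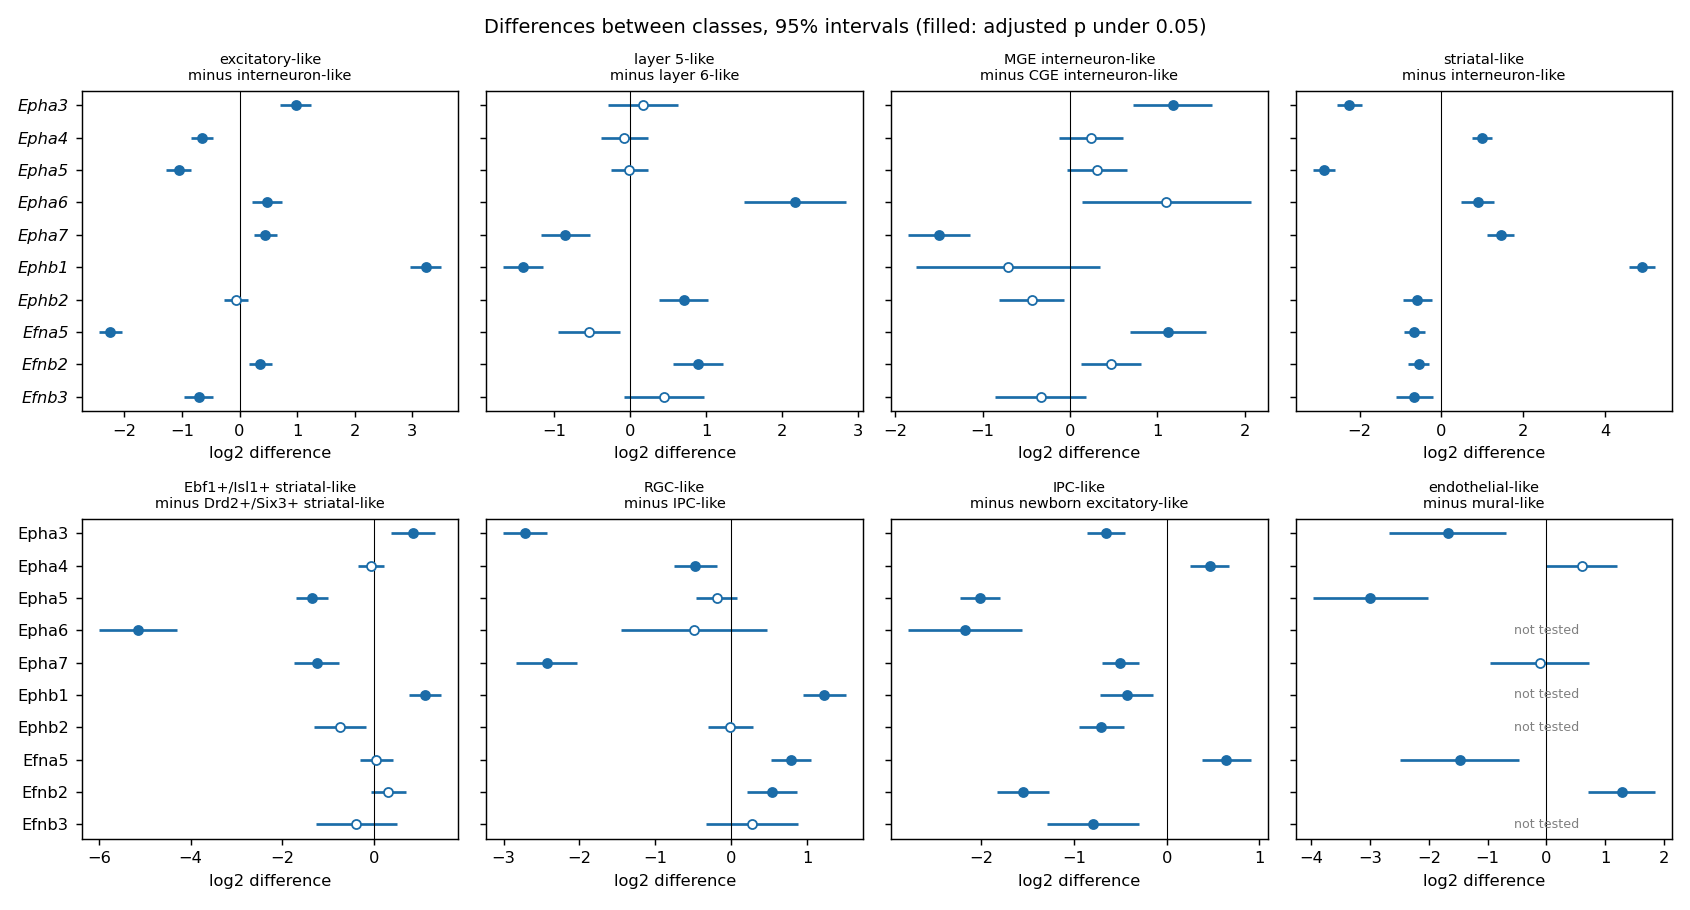
Log2 difference of each gene between the classes named above each panel, with 95% intervals from the edgeR fit on 2 sums per class; filled points passed an adjusted p of 0.05. Ephb1 lies far to the right against interneurons, at 3.23 for excitatory-like and 4.90 for striatal-like neurons, and Epha6 far to the left between the striatal-like classes, at -5.16.

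The second comparison was within the deep layers of the cortex, where layer 5 neurons project below the cortex and layer 6 neurons largely to the thalamus. Layer 5-like neurons had more Epha6, Efnb2 and Ephb2, and layer 6-like neurons more Ephb1 and Epha7. Epha6 was 4.48-fold higher in layer 5-like neurons (log2 difference 2.16 ± 0.30 SE, edgeR adjusted p = 0.00217). Here 210 and 288 CPM stood against 30 and 77.1 CPM, and the log2 difference was 2.78 within WT replicate 1 and 1.90 within WT replicate 6. In layer 6-like cells of WT replicate 1, 3 cells held 24 of the 30 UMIs. Efnb2 was 1.85-fold higher (adjusted p = 0.00603) and Ephb2 1.63-fold higher (88.0 and 86.7 against 53.0 and 52.3 CPM, adjusted p = 0.0200). In layer 6-like neurons Efnb2 overlapped with the erythroid level without globin, and Ephb2 lay below it. Ephb1 was 2.65-fold higher in layer 6-like neurons (adjusted p = 9.93e-05) and Epha7 1.81-fold higher (adjusted p = 0.00718).

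Epha4 differed by -0.08 (95% interval -0.39 to 0.23), Epha5 by -0.01 (-0.26 to 0.23) and Epha3 by 0.17 (-0.29 to 0.63). With 3 members higher and 2 lower, the background was 2.52% of 10526 genes called higher in layer 5-like neurons and 3.60% lower. With the library as a block, 1031 genes were called in place of 644, and Efna5, which was 1.45-fold higher in layer 6-like neurons, passed as well (adjusted p = 0.0405, against 0.132 without the block), with log2 differences of -0.08 and -0.94 within the libraries. Ephb2 missed the threshold with DESeq2 (adjusted p = 0.339), with likely doublets kept and at equal depth. Of 5 other family genes tested none was called, and of 18 signalling partners Grip1 and Nck1 were lower in layer 5-like neurons, with log2 differences of -0.55 and -1.43.

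The third comparison was between interneurons of the 2 eminences. MGE-like interneurons had more Epha3 and Efna5, and CGE-like interneurons more Epha7. Epha3 was 2.26-fold higher in MGE-like cells (614 and 763 against 242 and 358 CPM, edgeR adjusted p = 0.00468). Efna5 was 2.17-fold higher (338 CPM in both libraries against 182 and 119 CPM, adjusted p = 0.00470). Epha7 was 2.83-fold higher in CGE-like cells (182 and 218 against 72.1 and 71.0 CPM, adjusted p = 0.000132). The log2 differences were 1.18 ± 0.21, 1.12 ± 0.20 and -1.50 ± 0.16 (SE, 2 sums per class), with the same sign in both libraries for each.

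Against these 2 members higher and 1 lower stood 2.81% of 10088 genes called higher in MGE-like interneurons and 3.45% lower. With the library as a block the count of genes rose from 631 to 957 and that of members from 3 to 6. Epha5 (1.24-fold higher in MGE-like cells), Efnb2 (1.39-fold) and Epha6 (2.15-fold) then passed, with adjusted p of 0.0352, 0.0420 and 3.41e-05. For Epha6 this rests on CGE-like counts that differed 42 to 3 between libraries, and the difference within them was 0.43 and 3.54. Ephb2 was 1.36-fold higher in CGE-like interneurons without passing (adjusted p = 0.206). Epha3 did not pass with the stricter cell filter (adjusted p = 0.0701). Neither of 2 other family genes tested was called, and of 18 partners Grip1 and Vav2 were lower in MGE-like cells, with log2 differences of -0.61 and -0.81.

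The fourth comparison set the 415 striatal-like neurons against the same 1218 interneurons, with which the excitatory comparison shares its second class. All 10 members passed in edgeR. Ephb1 was higher by 4.90 ± 0.15 (549 and 556 against 16.1 and 20.5 CPM, adjusted p = 3.37e-11), 29.9-fold over a level at background. Epha7 was 2.72-fold (adjusted p = 6.1e-06), Epha4 1.99-fold (adjusted p = 1.82e-05) and Epha6 1.85-fold higher in striatal-like cells (adjusted p = 0.00343). For Epha6 only Drd2+/Six3+ cells, at 355 and 232 CPM, lay above interneurons, at 98.6 and 78.3 CPM. Ebf1+/Isl1+ cells lay below interneurons, at 13 and 1.97 CPM, so the pooled Epha6 result does not describe both striatal-like classes. Epha5 was 7.30-fold higher in interneurons (3647 and 4314 against 502 and 600 CPM, adjusted p = 1.02e-09), and Epha3 4.75-fold (adjusted p = 4.06e-08). For both genes the striatal-like level lay below the erythroid level without globin. The other 4, Efna5, Efnb3, Ephb2 and Efnb2, were higher in interneurons by 1.58-fold, 1.58-fold, 1.5-fold and 1.47-fold.

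Of all 11028 genes tested, 9.82% were called higher in striatal-like cells and 11.2% lower, against 4 and 6 of the 10 members. The calls of Ephb2, Efnb2 and Efnb3 were the least firm. DESeq2 gave them adjusted p of 0.159, 0.0750 and 0.332. None of 4 other family genes tested was called. Of 19 partners, 4 were higher and 5 lower, among them Ngef, which encodes ephexin-1, a protein that binds EphA4, with 17.6 and 13.4 against 1.47 and 2.01 CPM. The log2 differences of Vav3, Vav2 and Grip1 were 2.35, -1.76 and -2.39.

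The fifth comparison separated the striatal-like classes from each other. Ebf1+/Isl1+ cells had more Ephb1, and Drd2+/Six3+ cells more Epha6, Epha5 and Epha7. Epha6 had 266 and 142 UMIs in Drd2+/Six3+ cells and 8 and 1 in Ebf1+/Isl1+ cells, the latter below background. The log2 difference was -5.16 ± 0.40 (edgeR adjusted p = 1.42e-06), with -4.68 and -6.30 within the libraries. Epha5 was 2.56-fold higher in Drd2+/Six3+ cells (667 and 858 against 300 and 288 CPM, adjusted p = 6.76e-05) and Epha7 2.38-fold (adjusted p = 0.00289). For Epha5 the Drd2+/Six3+ level overlapped with the erythroid level without globin, 666 and 797 CPM, and the Ebf1+/Isl1+ level lay below it. Ephb1 was 2.17-fold higher in Ebf1+/Isl1+ cells (719 and 848 against 409 and 314 CPM, adjusted p = 0.000436). Epha4, high in both, differed by -0.07 with a 95% interval from -0.36 to 0.21.

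Epha3 was 1.81-fold higher in Ebf1+/Isl1+ cells (adjusted p = 0.0336), but with the library as a block the adjusted p was 0.0556, and it passed in only 4 of 9 alternatives. Its Ebf1+/Isl1+ level overlapped with the erythroid level without globin, 290 and 188 CPM, and its Drd2+/Six3+ level lay below that. Epha7 lost its call under the stricter marker gate (adjusted p = 0.135). The 2 members higher and 3 lower compare with 3.30% and 3.06% of 7738 genes tested. Neither of 2 other family genes tested passed. Of 19 partners, Ngef and Grip1 were lower in Ebf1+/Isl1+ cells, with Ngef at 4.89 and 0 against 28.0 and 24.5 CPM.

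The sixth comparison was between the cortical progenitors. RGCs divide at the ventricle and give rise to IPCs, which make neurons. IPC-like cells had 6.55 times the Epha3 of RGC-like cells (1070 and 1171 against 188 and 168 CPM, edgeR adjusted p = 7.94e-10) and 5.40 times the Epha7 (124 and 116 against 16.9 and 28.8 CPM, adjusted p = 9.22e-08). In RGC-like cells Epha3 overlapped with the erythroid level without globin (290 and 188 CPM), and Epha7 lay below it (45.9 and 66.4 CPM). Epha4 was 1.39-fold higher in IPC-like cells (adjusted p = 0.00964). RGC-like cells had 2.34-fold more Ephb1 (adjusted p = 3.41e-06), 1.73-fold more Efna5 (adjusted p = 0.000118) and 1.46-fold more Efnb2 (adjusted p = 0.0111). The IPC-like Ephb1 level, 48.2 and 53.4 CPM, lay below the erythroid level without globin, 88.6 and 127 CPM. Epha5 differed by -0.19 (95% interval -0.46 to 0.08) and Ephb2 by -0.01 (-0.31 to 0.28).

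The background was 21.5% of 11847 genes called higher in RGC-like cells and 17.8% lower, with 3 members in each direction. At equal depth Epha4, Efna5 and Efnb2 no longer passed (adjusted p = 0.0793, 0.158 and 0.0954), with log2 differences of -0.39, 0.41 and 0.58 in place of -0.47, 0.79 and 0.54. In cells without a UMI of Mki67 or Top2a, markers of division, the same count of 6 members passed. Among the 6 other family genes tested, Ephb4 and Ephb3 were higher in RGC-like cells by 1.22 and 1.35 on the log2 scale, together with Efnb1 at 132 and 138 against 66.1 and 77.3 CPM. Ephb6 (-1.53), Efna2 (-1.30) and Efna4 (-0.90) were lower. Of 19 partners 2 were higher and 6 lower, the largest being Chn2, with 31.8 and 28.8 against 295 and 289 CPM.

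The seventh comparison followed the next step of this lineage, from IPC-like cells to newborn excitatory-like neurons. All 10 members passed in edgeR, 8 of them higher in the neurons. Epha6 was higher by 4.52-fold from low counts (38.7 and 29.4 against 5.47 and 10.3 CPM, adjusted p = 8.28e-05), Epha5 by 4.05-fold (3046 and 3003 against 739 and 848 CPM, adjusted p = 4.44e-08) and Efnb2 by 2.92-fold (248 and 241 against 73.5 and 104 CPM, adjusted p = 2.53e-06). Efnb3, Ephb2, Epha3, Epha7 and Ephb1 were higher in the neurons by 1.74-fold, 1.63-fold, 1.58-fold, 1.41-fold and 1.35-fold. Efna5 and Epha4 went the other way, 1.56-fold (adjusted p = 0.00128) and 1.38-fold (adjusted p = 0.00254) higher in IPC-like cells. Both classes lay below the erythroid level without globin for Epha6 (73.4 and 74.7 CPM), Ephb1 (88.6 and 127 CPM) and Efnb3 (45.9 and 38.8 CPM). For Efna5 (110 and 69.2 CPM) the newborn level lay below it and the IPC-like level overlapped.

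Of 11745 genes, 20.4% were called higher in IPC-like cells and 19.6% lower, against 2 and 8 members. The Ephb1 call (adjusted p = 0.0204) was the weakest, passing in 4 of 10 alternatives, and its adjusted p was 0.455 in cells without Mki67 and Top2a. In those cells 7 members passed, Efna5 (adjusted p = 0.0552) and Efnb3 (0.0625) missing as well, and Epha7 was lost at equal depth (0.239). Efnb3 had a log2 difference of -0.80, which became -0.03 when cells were thinned and did not pass. The within-library differences of Epha6 were -2.77 and -1.49. Among 6 other family genes tested, 2 were higher in IPC-like cells (Ephb4 by 1.90, Efnb1 by 0.39) and 2 lower (Efna3 at -1.81, Ephb6 at -1.04). Of 19 partners 3 were higher and 10 lower in IPC-like cells, with Vav3 at -3.08 and Inppl1, a lipid phosphatase, at 1.63.

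The last comparison was between the cells of the vessel wall, where ephrin-B2 is known to act between endothelium and mural cells. Efnb2 was 2.44-fold higher in endothelial-like cells (85.9 and 118 against 46.9 and 37.6 CPM, edgeR adjusted p = 0.00186) and passed in 9 of 9 alternatives. Epha5, Epha3 and Efna5 were lower in endothelial-like cells, with log2 differences of -3.0, -1.68 and -1.47 (adjusted p = 0.000188, 0.0129 and 0.0286), but not by DESeq2 (0.0573, 0.0948 and 0.141). In the mural-like class 8 of 133 cells that the stricter marker gate removes held 79.5% of the Epha5 UMIs, 79.2% of the Epha3 UMIs and 69.2% of the Epha4 UMIs. The same 8 cells held 75.6% of the Fabp7 UMIs, a radial glial marker, and 0.341% of the Rgs5 UMIs, a pericyte marker. Without them mural-like cells had 31.7 and 18.2 CPM of Epha5 in place of 100.5 and 129 CPM, and 8.79 and 12.2 CPM of Epha3 in place of 31.8 and 60.8 CPM.

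That Epha3 level overlapped with the 16.0 and 10.5 CPM of endothelial-like cells under the same gate, where Epha3 had too few counts to be tested. Under the stricter gate the Epha5 difference was no longer called (-0.87, adjusted p = 0.319), whereas Epha4 was higher in endothelial-like cells (2.13, adjusted p = 0.000677, against 0.60 and 0.124 with all cells). That endothelial-like Epha4 level, 71.3 and 59.1 CPM, lay just above the erythroid level with globin, 47.3 and 57.4 CPM. It lay below the erythroid level without globin, 156 and 227 CPM. Epha5 in endothelial-like cells rested on 15 UMIs and 1 UMI in the libraries, and the difference was -2.17 and -5.36 within them. Of 8311 genes tested, 15.7% were called higher in endothelial-like cells and 16.1% lower, against 1 and 3 of the 6 members with enough counts to be tested. Epha6, Ephb1, Ephb2 and Efnb3 did not reach the filter on low counts. Both other family genes tested were higher in endothelial-like cells. Efna1, an ephrin-A known from vessels, had 84.4 and 115 CPM against 0 UMIs in both mural-like sums, at least 16.8-fold higher over a floor of 3 counts per library, and Ephb4, the venous receptor of ephrin-B2, was 39.3 and 79.8 against 10.1 and 19.7 CPM. Of 18 partners 7 were higher and 4 lower, with Vav3 at least 15.6-fold and Tiam1 5.07 on the log2 scale higher, and Chn1 and Grip1 lower at -4.29 and -3.89.

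**Figure D4:**
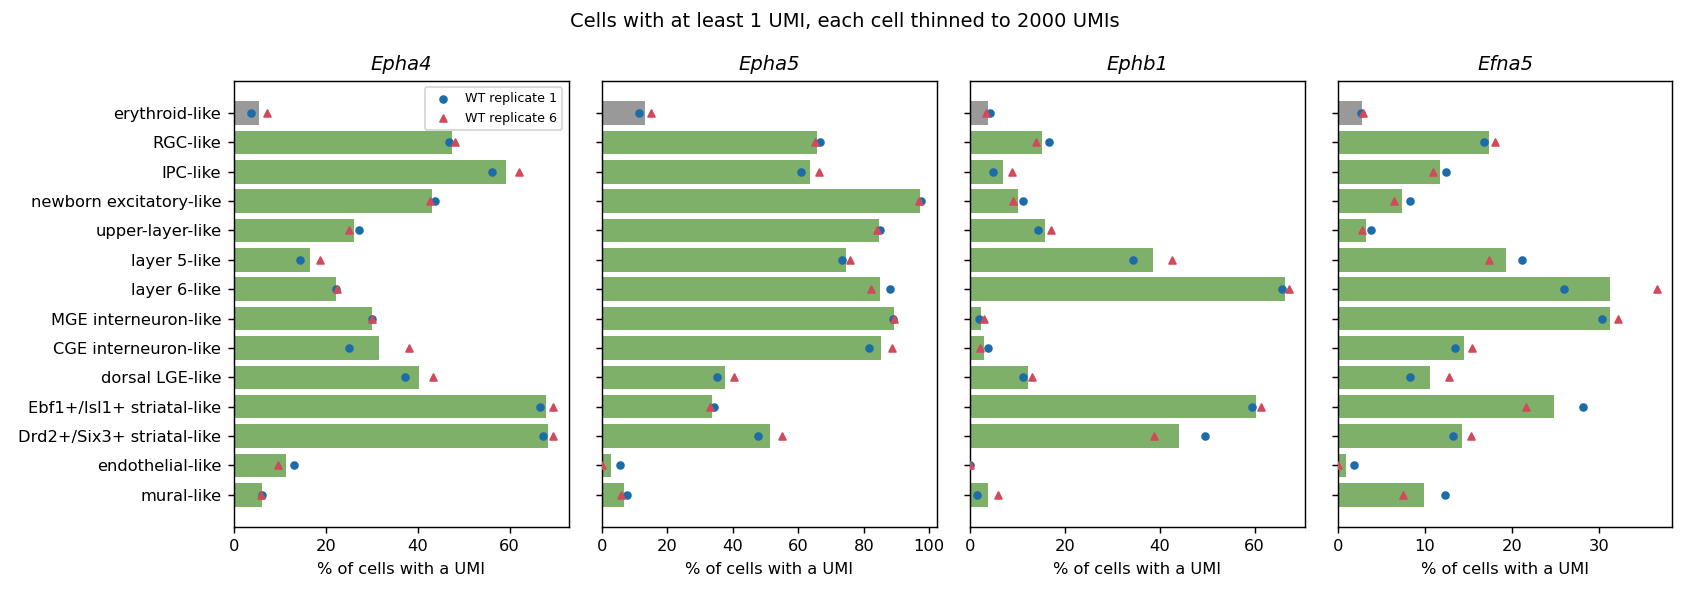
Percentage of cells with at least 1 UMI of Epha4, Epha5, Ephb1 and Efna5 after thinning each cell to 2000 UMIs; bars are means of 2 libraries, points the libraries, and the grey bar is the erythroid-like background. Ephb1 in interneurons (1.87% to 3.85% by library) is at the grey bar, while layer 6-like cells reach 65.7% and 67.2%.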

How the data were processed

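Per the labels, cells were dissociated with papain and libraries made with the 10x Genomics 3' v3.1 kit. The authors aligned and counted reads with Cell Ranger 7.0.0 (also named in the matrix headers) on mm10, per the submitters' processing notes. The deposited matrices hold unnormalized UMI counts. Whether intronic reads were counted, and the annotation, are not given in the sources used here. Markers, gene lists, members and comparisons were chosen with earlier results of these data known, and gate thresholds were set on marker UMIs after the matrices had been seen. Doublets were scored in each library against 2 simulated doublets per cell in 30 principal components, and the highest-scoring cells were removed, at 0.8% for each 1000 barcodes in the matrix.

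Counts were summed per library and class, because cells are not replicates. The 8 comparisons were fitted with edgeR 4.0.16 (quasi-likelihood, two-sided) after TMM scaling and filterByExpr, each with 2 sums per class, and p-values were adjusted by Benjamini-Hochberg over all genes tested. The standard error is the log2 difference over the root of F. With 2 libraries, whose origin from separate embryos the labels do not state, p-values measure only the spread between these samples, and cell counts limit precision. Each library gave cells to both sides of a comparison, and over genes the deviations of its 2 sums correlated (r from 0.116 to 0.286), so the library was tried as a block. The block leaves less residual spread to estimate from. Its edgeR adjusted p could be extreme, such as 2.75e-279 for Ephb1 between striatal-like neurons and interneurons. Calls gained only with the block are therefore not taken as firmer evidence. Alternatives were DESeq2 1.42.0, the block, no TMM, no low-count filter, doublets kept, stricter cell filters or gates, cells thinned to 2000 UMIs (shallower cells left out), cells without Mki67 and Top2a, 1 fit over all classes, and each library left out. Intervals of differences are those of the fit and hold the spread between libraries, and floors cover counting error only.

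Named in each comparison were the 10 members, and at most the 2 called genes of largest change in each direction from 12 other family genes and 20 signalling partners; other genes were named after their values were seen (Efnb1 and Efna4 in progenitors). For likeness in pattern, the first 3 genes per member were found, of which 1 or 2 are named.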

Additional observations from a re-analysis of the deposited data

How the results depend on the processing

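Of 693 alternative values for the members, 625 kept their direction and their side of the threshold, 47 no longer passed, 8 newly passed and 13 changed sign, none of them (0) a called difference, and 31 of 52 called differences passed in every alternative tried. Leaving out WT replicate 1 or WT replicate 6 leaves 1 sum per class and so gives a value with no test. Of 152 such values, 38 moved by more than the spread between libraries, and 10 changed sign, of which 0 belonged to a called difference. These values were taken without TMM scaling and the main values with it. A move therefore includes the scaling and does not measure the left-out library alone. The 13 sign changes with a test were Ephb2 between excitatory-like neurons and interneurons (0.017 with no low-count filter), Epha3 (-0.044 thinned), Epha4 (0.0089 with the stricter cell filter, 0.14 with the stricter gate) and Epha5 (0.016 without TMM, 0.034 with no low-count filter, 0.015 with doublets kept, 0.024 with the stricter gate) between layer 5-like and layer 6-like neurons, Efnb3 between the striatal-like classes (0.12 with the stricter gate), Ephb2 between RGC-like and IPC-like cells (0.052 without TMM, 0.28 thinned, 0.022 in 1 fit over all classes) and Epha7 between endothelial-like and mural-like cells (0.066 with the stricter gate). Analysis with the library as a replicate block (the pairing) called 1031 genes between layer 5-like and layer 6-like neurons and 957 genes with 6 members between MGE-like and CGE-like interneurons; beyond the members named in the report it changed no other member's call.

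DESeq2 called fewer genes: 357 in place of 644 (layer 5 against 6), 389 in place of 631 (MGE against CGE), 1184 in place of 2320 (striatal against interneuron), 278 in place of 492 (striatal classes), 2716 in place of 4654 (RGC against IPC), 2716 in place of 4697 (IPC against newborn) and 1580 in place of 2642 (endothelial against mural), the last with 1 member in place of 4. Thinning cells to 2000 UMIs, which discards counts and leaves out shallower cells (116 MGE-like and 32 CGE-like interneurons among them), gave 3915 in place of 6043 (excitatory against interneuron, with 5 members in place of 9), 349, 1371, 284, 2112 (RGC against IPC, with 3 members in place of 6), 2253 and 950 (endothelial against mural, with 1 member in place of 4) in the same order, MGE against CGE apart. One fit over all classes called 3907 genes between excitatory-like neurons and interneurons, no low-count filter 1122 between the deep layers, and the stricter cell filter 416 between MGE-like and CGE-like cells. The cause was not tested. Scaling without TMM moved the median of all genes by 0.087 at most on the log2 scale. The vascular classes rest on 85 and 133 cells.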

Other observations

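Cells that carried excitatory or GABAergic markers but passed no subtype gate were left out of the comparisons. The 1002 and 976 other excitatory-like cells had 965 and 1188 CPM of Epha3, 270 and 261 CPM of Epha4 and 212 and 226 CPM of Efnb2. The 719 and 705 other GABAergic-like cells had 438 and 423 CPM of Epha4, 171 and 165 CPM of Ephb1 and 325 and 247 CPM of Efna5. Among family genes outside the 10, Efnb1, an ephrin-B, had 132 and 138 CPM in RGC-like cells, and Ephb6, a receptor without kinase activity, had 41.9 and 53.6 CPM in Cajal-Retzius-like cells.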
